A study of Mus musculus with 4 samples.

Results

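Sox7, Sox17 and Sox18, the 3 genes of the SoxF group, were each read by their brightest probe set. They had signals between 592 and 2770.2 in the 3 VE-cadherin positive populations sorted from differentiating mouse ES cells. In the VE-cadherin negative population their signals were at most 30.4. Set against population 1, the Runx1 negative endothelium, all 3 were at least 13.7-fold lower in population 4, the VE-cadherin negative blood progenitors. Their levels over populations 1 to 3 did not move alike. Sox17 and Sox18 were lower in population 2 than in the first population and higher again in population 3, while Sox7 was lower at every step. The 3 genes were taken by symbol from the annotation of the array, which assigned 5 of its 45101 probe sets to them, 2 to Sox7, 2 to Sox17 and 1 to Sox18. They are 3 of 18194 named genes, and 4 of the 5 probe sets had a signal above 100 in at least 1 population.

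The cells were Runx1(Venus/+) ES cells, derived from the CCE line, in which the fluorescent Venus gene is driven by the proximal Runx1 promoter P2 and every population is heterozygous for this allele. They were differentiated for 6 days on OP9 cells, a mouse stromal line, with no other treatment. Population 1 was sorted as Runx1-Venus negative and positive for VE-cadherin and Flk1, population 2 as Runx1-Venus and VE-cadherin positive but CD41 negative, population 3 as positive for Runx1-Venus, VE-cadherin and CD41, and population 4 as Runx1-Venus and CD41 positive but VE-cadherin negative. Each population was read on 1 Affymetrix Mouse Genome array, and the deposited values are MAS5 signals, a linear intensity per probe set. The study also ran a further set of the same populations on Agilent arrays, which was not analysed here. With 1 array per population used here there is no replicate check and no test between populations, and the number of arrays limits the precision. Signals under 100 were set to 100 before ratios were taken, so that a fold that involves one of them is given as "at least". A gene with several probe sets was read by the one with the highest mean log2 signal.

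The SoxF proteins bind DNA through the HMG box that all Sox proteins share, and in the mouse they act partly redundantly in the formation of blood and lymphatic vessels. Sox7 is expressed in haemogenic endothelium, the endothelial cells that give rise to blood, where it is known to activate the VE-cadherin gene. Sox17 is known for its roles in definitive endoderm, arterial endothelium and fetal blood stem cells. Sox18 switches on Prox1 at the start of lymphatic development.

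Transcripts of the proteins used in the sort were read first. VE-cadherin (Cdh5) gave signals of 5683, 3946, 4849 and 40.9 in populations 1, 2, 3 and 4, and Runx1 had 55.3, 358, 1297 and 2440.2. Flk1 (Kdr) had 5866, 4496, 4835 and 905.7, and CD41 (Itga2b) had 667, 1135, 2418 and 1609.5. Cdh5 and Runx1 thus followed the gates, while Itga2b transcripts were also read in population 2, sorted as CD41 negative. Signals of 15 endothelial marker genes summed to between 30029 and 46122 in the VE-cadherin positive populations and to 3676 in population 4, and 14 of the 15 were at least 2-fold lower in population 4, relative to population 1, beside 12.9% of all genes that exceeded 100 on 1 or more arrays. All 8 erythroid markers on the array were at least 2-fold higher there, beside 22.4% of those genes. These marker levels move with the SoxF values of population 4 given below, and their part in them was not tested. In sorted bulk RNA, fewer SoxF expressing cells and less SoxF RNA per cell cannot be told apart.

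Sox7, on chromosome 14, was read by probe set 1416564_at, with signals of 2331 in population 1, 1686 in population 2, 1119 in population 3 and 30.4 in population 4. Its level was thus ordered from population 1 down to population 4, with the VE-cadherin negative cells far under the others. Population 2 stood at 72.3% and population 3 at 48.0% of population 1. The other Sox7 probe set, 1432495_at, designed on a separate cDNA, gave signals of 50.5, 14.4, 21.7 and 6.15 in populations 1 to 4. These lie under 100 on every array and allow no fold and no order. With the mean over both probe sets, Sox7 in population 3 was 1.00-fold lower than in population 2, in place of 1.51-fold by the bright probe set alone.

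Sox17, on chromosome 1, gave signals of 2770.2, 955, 1572 and 14.7 in populations 1, 2, 3 and 4 by probe set 1429177_x_at. Its second probe set, 1421657_a_at, had 1163, 419.9, 617 and 18.6. Both placed the populations in the order 1, 3, 2, 4. Population 2 was 2.90-fold lower than population 1 by the first probe set and 2.77-fold lower by the second, and population 3 was 1.65-fold and 1.47-fold higher than population 2. The _x_ in the name of the brighter probe set marks probes that may also bind similar transcripts, and the array holds no Sox17 probe set without such a suffix or the suffix _a_, which marks transcripts of one gene.

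Sox18, on chromosome 2, has 1 probe set, 1449135_at, with signals of 1367 in population 1, 592 in population 2, 1309 in population 3 and 21.6 in population 4. Population 3 thus reached 95.8% of population 1, while population 2 held 43.3% of it. With no second probe set and no replicate, the order of populations 3 and 1 for Sox18 rests on a single small difference, and it turned round when the arrays were scaled on their spiked-in hybridisation controls (1476 in population 3 and 1230.4 in population 1).

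**Figure D1:**
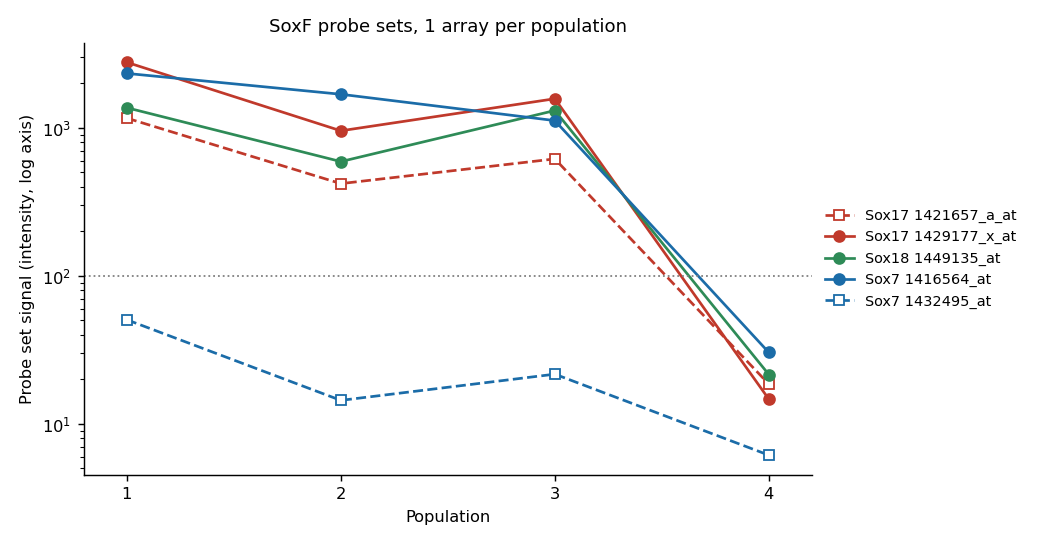
Signal (intensity, log axis) of the 5 SoxF probe sets in populations 1 to 4, 1 array each, so no error is drawn. Filled circles mark the probe set used for each gene, open squares the other probe sets, and the dotted line a signal of 100. The 4 bright probe sets lie between 419.9 and 2770.2 in populations 1 to 3 and between 14.7 and 30.4 in population 4.

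The step from population 1 to population 2 separates VE-cadherin positive cells without and with Runx1-Venus. Sox17 was 2.90-fold and Sox18 2.31-fold lower in population 2, relative to population 1, whereas Sox7 was 1.38-fold lower. At least 2-fold lower at this step were 2 of the 3 SoxF genes, beside 4.19% of the 9468 genes that exceeded 100 on 1 or more arrays, and 2.92% of those genes were at least 2-fold higher. Over all 9468 genes the median log2 ratio was 0.00. Genes under 100 in both populations of a step have a ratio of 0 by construction, and they count in the medians and shares given for all genes. A ratio as low as that of Sox17 was found for 134 genes, Sox17 included, and one as low as that of Sox18 for 259. For Sox7 this number was 1279, or 13.5% of the genes, so that its value at this step lay inside the main body of genes.

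CD41, the integrin alpha 2b chain of early blood progenitors, separates population 3 from population 2. Here the SoxF genes differed in direction. Sox18 was 2.21-fold and Sox17 1.65-fold higher in population 3, relative to population 2, and Sox7 was 1.51-fold lower, while the median log2 ratio over all genes was 0.22 and thus above 0. At least 2-fold higher at this step was 1 of the 3 SoxF genes, beside 3.11% of all genes, and only 0.253% of genes were at least 2-fold lower. A value as low as that of Sox7 was found for 99 genes (1.05%), although it was under the 2-fold size. The difference in direction between Sox7 and the other 2 genes was not tested, since each rests on 1 array per population.

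Population 4 lacks surface VE-cadherin but, like population 3, carries CD41. Sox17 was at least 15.7-fold, Sox18 at least 13.1-fold and Sox7 at least 11.2-fold lower in population 4, relative to population 3. All 3 SoxF genes were thus at least 4-fold lower, beside 4.65% of all genes, whereas 12.2% of genes were at least 2-fold lower and 7.94% at least 2-fold higher. The ratios are limited by the floor of 100, under which all 3 genes lay in population 4, and the measured signals there cannot be ordered.

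Sox17 was at least 27.7-fold, Sox7 at least 23.3-fold and Sox18 at least 13.7-fold lower in population 4, relative to population 1. All 3 passed the 4-fold size, beside 5.67% of all genes. At 2-fold, 12.9% of all genes were lower and 22.4% higher, with a median log2 ratio of 0.36. By its second probe set Sox17 was at least 11.6-fold lower. These ratios too are bounds set by the floor of 100, so they do not rank the 3 genes. All 3 SoxF genes had their highest signal in population 1, as had 16.4% of all genes.

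**Figure D2:**
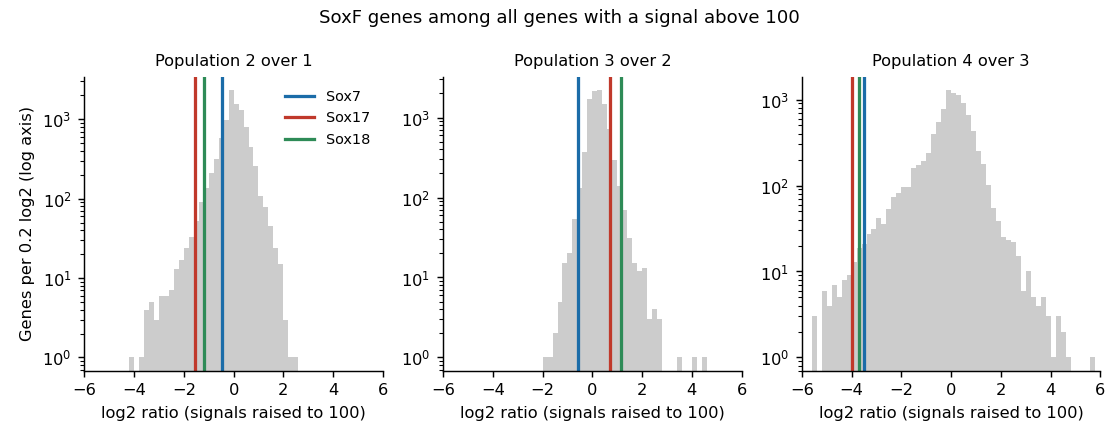
Log2 ratio between neighbouring populations for 9468 genes (grey, number of genes per bin on a log axis) with the 3 SoxF genes as vertical lines, signals raised to 100. Sox7 lies at -0.47, -0.59 and -3.48, Sox17 at -1.54, 0.72 and -3.97, and Sox18 at -1.21, 1.15 and -3.71.

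A pattern of at least 2-fold lower in population 2 and at least 2-fold higher again in population 3 was shown by 83 genes (0.877%), and Sox18 was the 1 SoxF gene among them. Sox17 met the first size but not the second, and Sox7 met neither. Of the 83 genes, 52 were lowest in population 4, as Sox18 was. Mef2c, which encodes a MADS box factor known as a partner of Sox18 protein, was among them too, with signals of 1387, 669, 1626 and 1569.9 in populations 1 to 4, so that, unlike Sox18, it stayed high in population 4. After centring each array on its median, 31 genes showed the pattern, and Sox18, then 1.79-fold higher in population 3, relative to population 2, was no longer one of them. The same held after quantile scaling (33 genes) and scaling on housekeeping genes (36 genes). When the arrays were scaled on the hybridisation controls there were 188, and both Sox17 and Sox18 belonged to them.

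The scale between arrays touches this step more than the others. Relative to population 2, population 3 had a median log2 signal that was higher by 0.31 over genes and hybridisation control signals that were lower by 0.37. The Sox18 ratio of population 3 over population 2 therefore ranged from 0.84 after centring to 1.52 on the controls, that of Sox17 from 0.41 to 1.09 and that of Sox7 from -0.90 to -0.22. The signs held on each of these scales. A scale that multiplies a whole array by 1 factor moves the 3 genes alike, so that their order at this step did not depend on it.

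**Figure D3:**
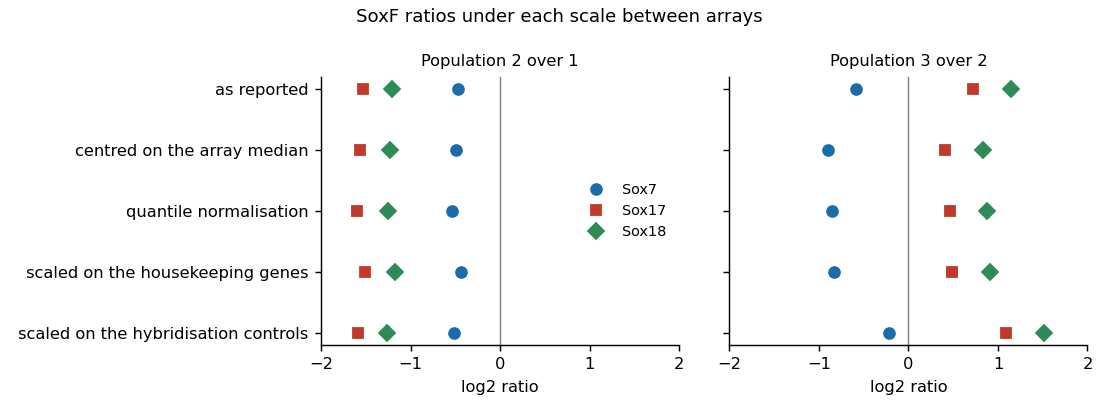
Log2 ratio of population 2 over 1 and of population 3 over 2 for the SoxF genes on the deposited scale and under 4 other scales between arrays. Sox7 lies under 0 in both panels, and Sox17 and Sox18 lie under 0 in the first and above 0 in the second on every scale shown.

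Likeness of 2 genes was measured as the root mean square difference of their log2 signals over the 4 populations, each gene centred on its own mean, so that 0 means the same shape. Among the SoxF genes, Sox17 and Sox18 differed least (0.39), Sox7 and Sox17 by 0.49, and Sox7 and Sox18 most (0.68). Over populations 1 to 3 alone, a comparison chosen after the data were seen, the same order held, with 0.31, 0.57 and 0.71. Among 6053 other genes with a signal of at least 400 in 1 population, Sox18 ranked as the gene 35th nearest to Sox17, and Sox17 as the 76th nearest to Sox7. Genes outside the family were thus closer in profile to each member than the members were to one another.

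The genes nearest to Sox7 were Amotl1 (0.20), which encodes a junction protein of the angiomotin family, Nos3 (0.21), the endothelial nitric oxide synthase, Id3 (0.22), an inhibitor of bHLH factors, Tnfaip1 (0.23) and Ccn1 (0.24), a secreted matrix protein. Nos3 gave signals of 1827, 1191, 1072 and 50.04 in populations 1 to 4. Amotl1 had 2546, 1977, 1618 and 80.4, and like Sox7 both were lower at every step. Sox17 was closest to Ccn2 (0.08), the matrix protein connective tissue growth factor, with signals of 3059, 1103, 1749 and 39.5. It was followed by the semaphorin and VEGF co-receptor gene Nrp1 (0.10), the scaffold protein gene Akap12 (0.11), Tmem204 (0.15) and the semaphorin gene Sema6d (0.17). Closest to Sox18 was Cd34 (0.09), a sialomucin of endothelium and early blood cells, with 2950.1, 1367, 2974 and 257. Next came Klf4 (0.14), a Kruppel-like factor, with 3184, 1797, 3625 and 279.7, then Fxyd5 (0.15), Rnf144a (0.17) and Pdgfb (0.17), the growth factor with which endothelium recruits pericytes. These likenesses describe 4 arrays, and the part in population 4 rests on the floor of 100 for each SoxF gene.

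**Figure D4:**
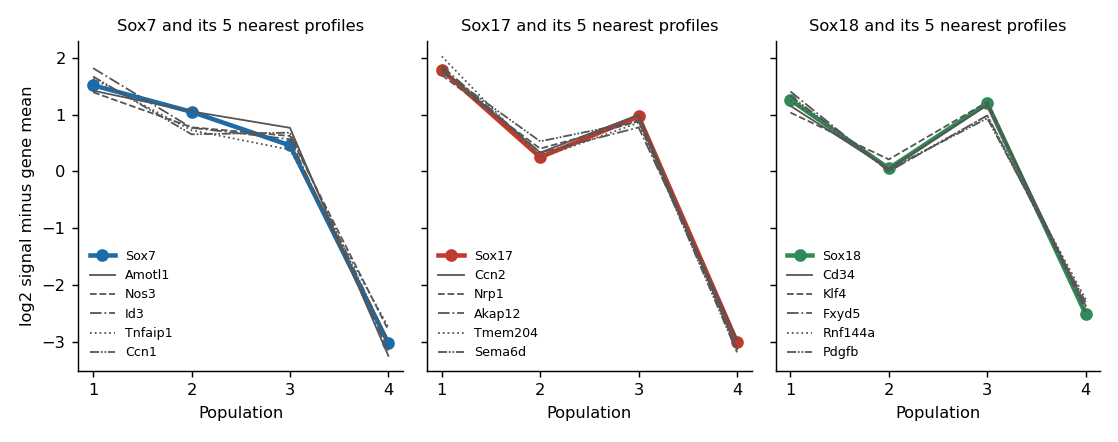
Log2 signal minus the gene's own mean in populations 1 to 4 (signals raised to 100) for each SoxF gene (coloured) and the 5 genes nearest to it (grey), 1 array per population. The Sox17 and Sox18 lines are lower in population 2 than in population 3, and the Sox7 line is not. In the Sox7 panel Ccn1 is slightly lower in population 2 (0.65) than in population 3 (0.68).

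Genes tied to SoxF factors in endothelium by earlier work were listed next, as a list of 10 that does not depend on these arrays but was drawn up with results of them known. Of the 8 with a signal above 100, 7 were at least 2-fold lower in population 4, relative to population 1, beside 12.9% of all genes, and 0 were at least 2-fold higher, with a median log2 ratio of -3.82 against 0.36 over all genes. Cdh5 was at least 56.8-fold lower, but it encodes the VE-cadherin for which population 4 was sorted as negative, so its fall follows the gate. Each of the 7 lower genes is also in the list of endothelial markers or of arterial genes. The counts for these lists therefore overlap and are not separate results. The Notch1 receptor gave signals of 5335, 3706, 4037 and 149, the arterial ligand gene Efnb2 had 6961, 5860.3, 5390 and 329, and the angiopoietin receptor gene Tek had 2446, 3169, 3405 and 254. Relative to population 1, these 3 were 35.9-fold, 21.2-fold and 9.63-fold lower in population 4, and none of them was 2-fold lower in population 2.

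In population 2 the list split. The tight junction gene Cldn5, with 2058, 527, 693 and 24.4, the guidance receptor gene Robo4, with 747, 146, 230.1 and 29.7, and the Notch ligand gene Dll4, with 802, 256, 356 and 21.4, were 3.91-fold, 5.12-fold and 3.14-fold lower in population 2, relative to population 1. These 3 of 8 genes were at least 2-fold lower at that step, as Sox17 and Sox18 were, beside 4.19% of all genes. In population 3 all 3 were higher than in population 2, though by 1.31-fold to 1.58-fold and so by less than 2-fold. Prox1 differed from these, with 85.2, 192, 165 and 150.2 in populations 1 to 4. Vcam1 and Mmp7 had no signal above 100 on any array.

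Windows from 250 bases before to 50 bases after the gene start, from RefSeq for GRCm38.p6, were searched for ACAATG and ACAAAG, the core letters that HMG boxes of Sox proteins bind, on both strands. Neither motif contains the other. Of the 10 listed genes 8 have a window, and in 3 of these 8, Prox1, Tek and Mmp7, a motif was found, in 4 of 10 windows, where 28.6% of all 32851 windows hold one. No window was matched for Sox7, Sox17, Sox18, Cdh5 and Vcam1. The motifs of the 2 expressed genes are shown within 30 bases, with the motif in capitals, for Tek at chr4:94739251-94739280 on the plus strand and for Prox1 at chr1:190169672-190169701 on the minus strand. They lie 26 bases before the start of Tek, on the strand of the gene, and 174 bases before that of Prox1, on the opposite strand, and are shown because these genes differ from each other across the populations.
Tek: accttacttgtaACAAAGatccctctgccc
Prox1: gagtccttctccCTTTGTcttgtttattct
For population 4 over 1, Tek gave a log2 ratio of -3.27 and Prox1 one of 0.59, a lower bound. A match of 6 letters is a description of the sequence and does not show binding.

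The SoxF proteins act with partners, of which 6 were listed. Mef2c, described above, was the one with the pattern of Sox18 over populations 1 to 3. Rbpj, the DNA-binding factor of the Notch pathway, gave signals of 390, 435, 524 and 606 in populations 1 to 4, and beta-catenin (Ctnnb1), with which Sox7 and Sox17 proteins interact, had 10723, 9517, 10347 and 6319. Neither reached a 2-fold difference at any step. Plakoglobin (Jup) had 274, 192, 362 and 98.6 and thus was low in population 2 and higher in population 3, as Sox17 and Sox18 were, by less than 2-fold. The Wnt pathway factor gene Lef1 had 292, 141, 78.0 and 17.7, lower at the first 2 steps as Sox7 was and under 100 in populations 3 and 4. Pou5f1, a partner of Sox17 in endoderm, had at most 30.3 on all arrays. Of the 5 partners above 100, 2 were at least 2-fold lower in population 4, relative to population 1, and 0 at least 2-fold higher, beside 12.9% and 22.4% of all genes.

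Among the 17 Sox genes of other groups, 6 had a signal above 100, beside 9468 of all 18194 genes. The SoxC gene Sox4 had 11109, 8398, 9075 and 1078 in populations 1 to 4. It was 10.3-fold lower in population 4, relative to population 1, and by this bright probe set kept a signal above 100 there, unlike the SoxF genes. All 5 of its probe sets above 100 were highest in population 1 and lowest in population 4. Sox11, also of the SoxC group, had 879, 479, 217 and 94.7, lower at every step as Sox7 was. Sox13, of the SoxD group, had 289, 226, 242 and 28.0. Relative to population 1, 3 of the 6 genes, Sox4, Sox11 and Sox13, were at least 2-fold lower in population 4, beside 12.9% of all genes. Sox6, a SoxD gene with a known role in erythroid cells, had 143, 63.6, 79.4 and 201 and was the 1 of the 6 with its highest signal in population 4. Sox12 and Sox21 had their highest signals, 202 and 184, in population 3. With signals under 100 set to 100, none of the 6 was at least 2-fold lower in population 2, relative to population 1. For Sox6 that ratio is only a bound, as its signals of 63.6 and 79.4 in populations 2 and 3 lie under 100.

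**Figure D5:**
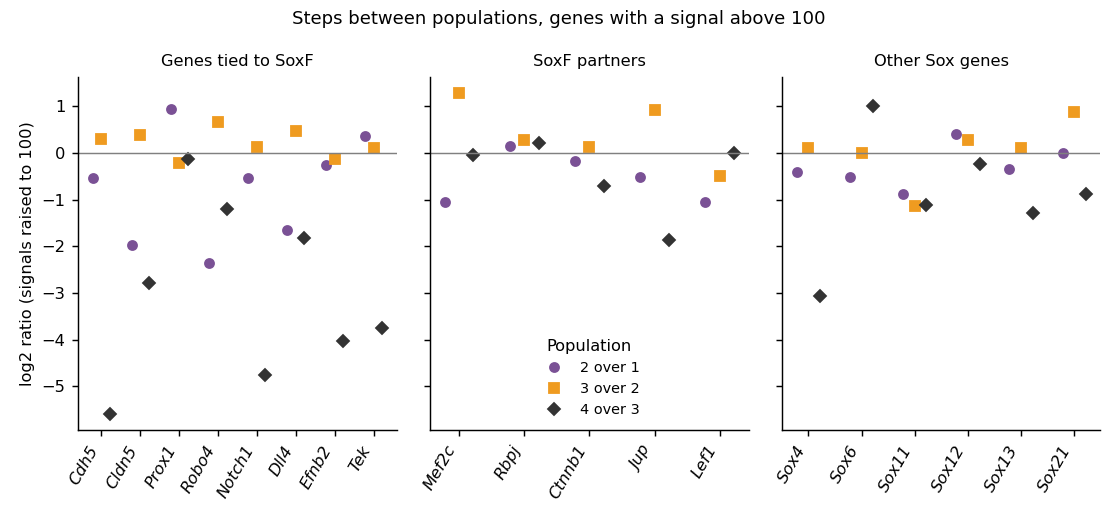
Log2 ratio between neighbouring populations (signals raised to 100) for genes tied to SoxF factors, SoxF partners and Sox genes of other groups with a signal above 100, 1 array per population. Cldn5, Robo4 and Dll4 lie at -1.97, -2.36 and -1.65 for population 2 over 1, and Sox4 lies at -3.07 for population 4 over 3.

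Set among transcription factors of the lineage, the SoxF genes belonged to those lower in population 4. Of 22 endothelial transcription factor genes, all with a signal above 100, 13 were at least 2-fold lower and 1 at least 2-fold higher in population 4, relative to population 1, beside 12.9% and 22.4% of all genes, and their median log2 ratio was -1.70 against 0.36 over all genes. The lowest measured log2 ratios of the list were -4.05 for Elk3, -5.00 for Hey1 and -5.91 for Epas1. Tal1, at 2.53, was the gene at least 2-fold higher. The SoxF ratios of that comparison are bounds. Sox7 (at most -4.54) and Sox17 (at most -4.79) thus lay under Elk3, and no other order against Elk3, Hey1 or Epas1 can be given. Epas1, a hypoxia-inducible factor, was also at least 2-fold lower in population 2, with 6299, 1479, 2870 and 104 in populations 1 to 4, and 1.94-fold higher in population 3, relative to population 2. By contrast, 10 of 13 blood transcription factor genes above 100 were at least 2-fold higher in population 4, relative to population 1, beside 22.4% of all genes. Among 12 arterial genes 11 were above 100, all 11 were at least 2-fold lower in population 4, relative to population 1 (12.9% of all genes), and 5 of the 11 were at least 2-fold lower in population 2 (4.19% of all genes).

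Sox7 and Sox17 are expressed in endoderm as well as in endothelium, so endoderm genes were read on the same arrays. Of 15 listed, 11 were under 100 in every population, where 9468 of all 18194 genes exceeded 100 in at least 1. The highest signal of the 11 was 90.8, and Foxa2, Afp and Cer1 among them had at most 21.8 throughout. The other 4 were Gata6, with 822, 725, 554 and 51.4 in populations 1 to 4, Dab2, with 752, 135, 88.1 and 39.1, Krt8 and Krt18. Krt8 had 451, 438, 278 and 218, and Krt18 had 310, 333, 214 and 176. Some genes of the list are expressed by other cells too. The summed signal of the 15 was 2705, 1951, 1504 and 756 in populations 1 to 4, and that of 10 stromal genes, of the kind OP9 cells express, was 4412, 3019.9, 2485 and 2077. Both sums were thus lower at every step, as Sox7 was, and their part in its values was not tested. The stromal collagen gene Col3a1 had 658, 334, 376 and 251. It was 1.13-fold higher in population 3 than in population 2, a log2 ratio of 0.17 beside a median of 0.22 over all genes. Lower in population 3 than in population 2 were Col1a2 (970 and 1132), Acta2 (732 and 1065) and Pdgfrb (159 and 271). The part of these stromal genes in the Sox17 and Sox18 values was not tested either.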

How the data were processed

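RNA of 4 populations sorted from day 6 co-cultures was hybridised to 1 array each. The authors deposited MAS5 intensity values per probe set that are not log-transformed. MAS5 and GCOS 1.3 are named in the submitters' processing notes, and the target to which arrays were scaled is not given in the sources used here. The array holds 45101 probe sets: 34958 carry 1 gene symbol and were used, while 932 with several symbols and 9211 with none were left out. Symbols come from the array annotation, updated by gene records of GRCm38.p6. Each of 18194 genes was read by its brightest probe set (mean log2 signal), and 9468 exceeded 100 in at least 1 population. Ratios are the population with the higher number over the one with the lower number, with signals raised to 100. All populations were sorted on day 6, so these numbers are not an order in time. Fold sizes of 2 and 4 stand in for a test.

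The genes, lists and measures were chosen with earlier results of these data known. Genes were named by rule: members, sort markers, listed SoxF-tied, partner and Sox genes, the 5 nearest profiles per member (signal of at least 400), and up to 4 per other list. Epas1, Elk3, Hey1, Tal1 and the endoderm genes were named after their values were seen. Alternatives were 4 scales, 2 choices of probe set and 3 floors. Ratios and likeness were tested on simulated data for 9468 genes, where a planted log2 ratio of 1 for population 3 over 2 came back as 0.99 (median of 200 genes). This checks the arithmetic only. The planted genes were bright and did not fall far under 100, as the SoxF genes did in population 4. Python 3.11.15, pandas 2.3.3, numpy 2.4.6 and matplotlib 3.10.9 were used.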

Additional observations from a re-analysis of the deposited data

How the results depend on the processing

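Of 104 alternative values for the 12 SoxF ratios, 104 kept their sign, 80 stayed within 1.5-fold of the reported value and 24 did not. Part of this was fixed in advance. The floors cannot change ratios among populations 1 to 3, where the SoxF signals used all exceed 200. Leaving out marked probe sets cannot alter Sox7 or Sox18, and the mean over probe sets cannot alter Sox18. These counts therefore overstate how far the values were put to a test. Population 4 over 1 is set by the floor: log2 ratios were -5.54, -5.79 and -4.77 for Sox7, Sox17 and Sox18 with signals raised to 50, -3.54, -3.79 and -2.77 with 200, and -6.26, -7.56 and -5.99 with no floor. Population 4 over 3 gave -4.48, -4.97 and -4.71 with 50, -2.48, -2.97 and -2.71 with 200, and -5.20, -6.74 and -5.92 with no floor. The floors 50 and 200 move these ratios by construction. With the mean over probe sets Sox7 gave -1.78 for population 4 over 1, -1.14 for 2 over 1, 0.00 (-0.0016) for 3 over 2 and -0.64 for 4 over 3, where its second probe set lay under 100 throughout, and Sox17 gave -4.17 for 4 over 1 and -3.30 for 4 over 3. Without probe sets marked _s_, _x_ or _a_ no Sox17 value could be had. One housekeeping gene used for scaling, B2m, itself had 4563, 1659, 3895 and 2050 (2049.6) in populations 1 to 4. The 83 genes at least 2-fold lower in population 2 and higher again in population 3 became 31, 33, 36 and 188 with centring, quantile, housekeeping and hybridisation control scaling, 125, 45 and 191 with floors of 50, 200 and none, 53 with the mean over probe sets and 61 without marked probe sets. No paired analysis was possible because 1 array per population was analysed here. Signals near or under 100, as those of all SoxF genes in population 4, limit what these arrays can order.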

Other observations

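Genes listed beside the SoxF genes in the GRCm38.p6 gene order were read too. None of those with a signal above 100 was highest in population 1, as the SoxF genes were. Of all genes, 16.4% were highest there, so for so few neighbours this does not set them apart. The others lay under 100 on every array or had no probe set in use, and allow no comparison. On one side of Sox17, the mitochondrial ribosomal gene Mrpl15 gave 1193, 1886, 2703 and 2023 in populations 1 to 4 and Lypla1 had 954, 1445, 2371 and 1372. Both were lowest in population 1, where Sox17 was highest, beside 4309 of all 9468 genes that were lowest there. On its other side Rp1 and Xkr4 had at most 19.7 on every array. Of the 4 nearest genes of Sox7, only Pinx1 exceeded 100, with 85.0, 83.5, 104 and 129. Near Sox18, Prpf6 had 462, 511, 618 and 676, Rgs19 had 601, 625, 823 and 363, and Tcea2 had 83.2, 91.9, 156 and 52.1. Rgs19 and Tcea2 were thus lowest in population 4, as Sox18 was, beside 2610 of all 9468 genes. Gm29797 had no probe set in use.

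Other genes shared the pattern of Sox18, at least 2-fold lower in population 2 and at least 2-fold higher again in population 3. They were picked here from the 83 genes after their values were seen. The platelet receptor gene Clec1b gave 2514, 616, 2627 and 951 in populations 1 to 4, the adhesion receptor gene Adgre5 had 1399, 550.3, 1972 and 146, and the lipid transporter gene Abca1 had 2156, 395, 1324 and 114. The housekeeping gene B2m was one of the 83 as well. Of the 83 genes, 29 lay under 100 in population 4, and the share of all genes that did was not computed.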
